A study of Mus musculus with 12 samples.

Results

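The acyl-CoA thioesterases described here are 9 genes, *Acot1*, *Acot2*, *Acot3*, *Acot4*, *Acot7*, *Acot8*, *Acot9*, *Acot11* and *Acot13*, of the 37074 gene or transcript names on the array. Every non-control probe that carries one of these symbols was taken, which gave 14 probes, 2 for each of 5 genes and 1 for each of 4. The gene list was chosen by a result of the same arrays, the difference between diabetic and non-diabetic hearts averaged over pargyline, in which the *Acot1* probe had passed the threshold. For these genes the diabetic against non-diabetic differences are therefore a description. Whether a probe passed the threshold of the fit over the whole array is stated for them, but it is not read as a test of the members. The contrasts of pargyline and the interaction, which that choice did not use, are tested.

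The arrays measured RNA from heart muscle of 12 male C57BL6/J mice of 5 months, with 1 array per mouse and 3 mice in each of 4 groups. C mice received neither streptozotocin nor pargyline. C+P mice received pargyline, an inhibitor of monoamine oxidase, at 50 mg/kg/day for 12 weeks. D mice were given streptozotocin, which is toxic to the insulin-producing cells, at 50 mg/kg/day on 5 consecutive days, and counted as diabetic from a blood glucose of 17 mM upward. D+P mice received streptozotocin and then pargyline at the same doses, and mice without pargyline got vehicle. The model is insulin deficiency caused by a toxin, and RNA of the tissue mixes that of muscle with that of vessel, connective tissue and blood cells, so that fewer cells of a type and less RNA per cell cannot be told apart. All 6 cardiomyocyte markers were well above background on all 12 arrays, and of the 3 atrial markers *Myl4* was on 12, *Myl7* on 4 and *Sln* on 0. C and D arrays shared 1 slide and scan, and C+P and D+P arrays another, so a difference between mice with and without pargyline cannot be told apart from the slide. Row 1 of both slides held non-diabetic mice and row 2 diabetic ones, so diabetes cannot be told apart from the row.

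Acyl-CoA thioesterases split the thioester bond between a fatty acid and coenzyme A and release the free acid and the coenzyme. They thereby oppose the acyl-CoA synthetases and set how much activated fatty acid and free coenzyme A a compartment holds. Type I enzymes are close relatives encoded side by side, with *Acot1* in the cytosol, *Acot2* in the mitochondrial matrix and *Acot3* and *Acot4* in peroxisomes. Type II enzymes differ in sequence and include *Acot7* and *Acot11* of the cytosol, *Acot8* of peroxisomes and *Acot9* and *Acot13* of mitochondria. *Acot1* and *Acot2* are known in rodents as genes that respond to fatty acids and fasting through the nuclear receptor PPAR alpha.

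Values are log2 intensities after quantile normalisation between the 12 arrays, so that 1 unit is a doubling of intensity, and they are compared between groups for a given probe and never between probes. Tests took in probes that the scanner software marked as positive and significant in 50% or more of each group's arrays. This held for 12 of the 14 probes and left each gene with at least 1. Of these 12, 11 were well above background on all 12 arrays. The exception was the tested *Acot4* probe, which was well above background on 1 of 12 arrays. The second *Acot4* probe was well above background on 1 array and the second *Acot3* probe on 0 of 12, and neither was tested. No non-control spot was saturated.

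Because type I genes are close paralogs, the probes that carry the main differences are shown by the first 30 of their 60 bases, beside both probes of *Acot5*, a neighbouring type I gene that is no member of the list. In mm9, the build of the array files, the *Acot1* probe lies at chr12:85358452-85358511, the *Acot2* probe at chr12:85334553-85334612, probe 1 of *Acot5* at chr12:85416634-85416693 and probe 2 at chr12:85416893-85416951, all on the plus strand. Whether a probe lies in a coding or an untranslated part is not given in the sources used here.
Acot1: tatcaaaatagtgctgattcaagggctggg
Acot2: atggtagaaggagagaacaaactctgacaa
Acot5 probe 1: ggagaagccccagattgtctgctaccccaa
Acot5 probe 2: cgctggtcctgttcccctgagaattaggat
Over their full 60 bases, the *Acot1* probe shared no run longer than 7 bases with a probe of another gene in this set, and the *Acot2* probe none longer than 9. Across all probes of the array the longest run shared with a probe of another gene was 13 bases for *Acot1* and 17 bases for *Acot2*. These runs compare probes with probes. Binding of a probe to the transcript of a paralog was not tested, because transcript sequences were not used here.

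Of the 12 tested probes, that of *Acot1* differed by far the most between diabetic and non-diabetic hearts. Its intensity was 9.91, 9.77 and 9.80 on the C arrays and 9.64, 9.38 and 9.11 on the C+P arrays. It was 11.52, 11.36 and 11.10 on the D arrays and 10.35, 11.82 and 11.93 on the D+P arrays. Every diabetic array lay above every non-diabetic array, and D+P replicate 1 lay between the other diabetic arrays and the controls. Averaged over pargyline, *Acot1* was higher in diabetic hearts by 1.75 on the log2 scale (SE 0.25), or 3.35-fold. The difference was 1.50 (SE 0.35) in D against C and 1.99 (SE 0.35) in D+P against C+P. Ordered by group mean, *Acot1* was at 9.37 ± 0.27 in C+P, 9.82 ± 0.07 in C, 11.32 ± 0.21 in D and 11.36 ± 0.88 for D+P (SD, n = 3 each), and the means of D and D+P lay closer together than the spread within either.

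In the averaged contrast 1 of the 12 member probes, that of *Acot1*, passed the adjusted threshold of 0.05 in limma, beside 0.107% of all 30859 tested probes. *Acot1* no longer passed when any 1 of 11 arrays was left out and passed without D+P replicate 1, where the difference was 2.00, the largest of the 12 values. In D against C, 0 of 12 member probes passed, where 0.00648% of all probes did, and in D+P against C+P 0 of 12, where 0.0454% did. Leaving out D+P replicate 1 brought *Acot1* past the threshold in D+P against C+P, with a difference of 2.50. With no adjustment, 3 of 12 probes had a p under 0.05 in the averaged contrast, where 11.4% of all tested probes did. Within the pargyline slide it was 2 of 12 beside 7.46% of all tested probes, and within the other 1 of 12 beside 10.8%. Since the list was chosen on these differences, nothing is read from any of these counts or from the changes when an array was left out.

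**Figure D1:**
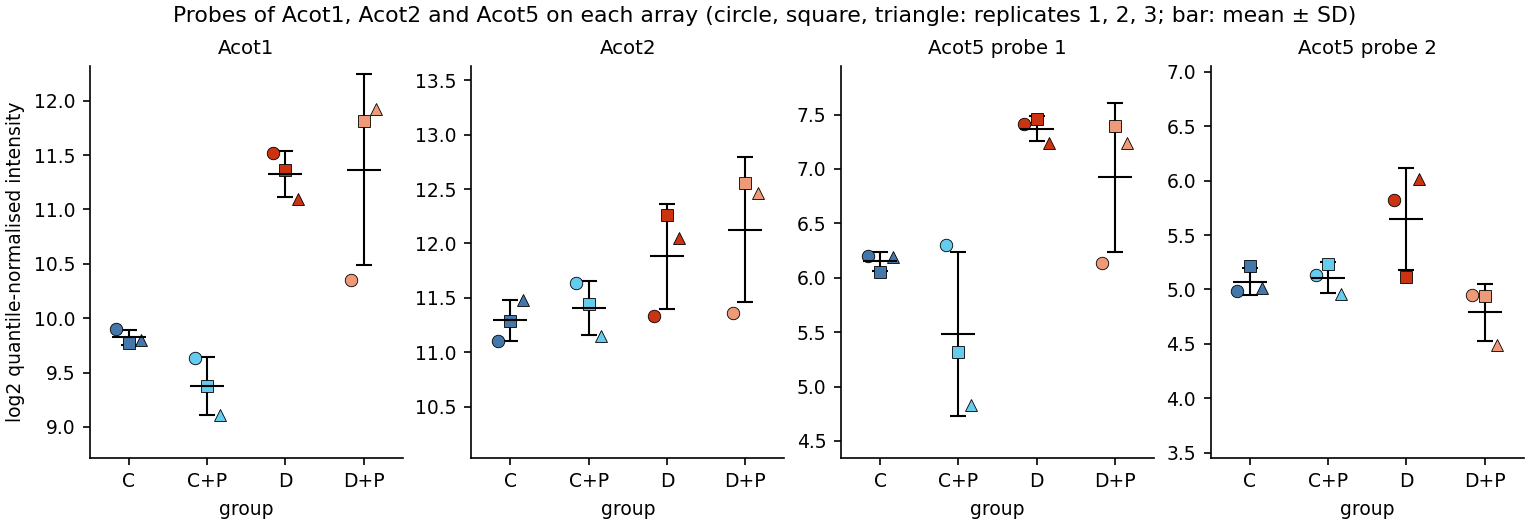
Log2 quantile-normalised intensity (vertical axis, a range of the same width in each panel but at a different level) of the probes of Acot1, Acot2 and Acot5 by group. Symbols are single arrays (circle, square and triangle for replicates 1, 2 and 3), and the bars give the mean and SD of 3 arrays. Acot1 lies between 9.11 and 9.91 on the non-diabetic arrays and between 10.35 and 11.93 on the diabetic arrays, and D+P replicate 1 is the lowest diabetic array for Acot1 and for probe 1 of Acot5.

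*Acot2*, the mitochondrial counterpart next to *Acot1* on chromosome 12, had a smaller averaged difference than *Acot1*, with groups that overlapped, and did not pass the threshold in any diabetic contrast. It was at 11.10, 11.29 and 11.48 in C and at 11.63, 11.44 and 11.14 in C+P. It was at 11.33, 12.26 and 12.05 in D and at 11.36, 12.56 and 12.47 in D+P. Replicate 1 of D and replicate 1 of D+P lay within the range of the non-diabetic arrays, and the other 4 diabetic arrays lay above all 6 of them. The averaged difference was 0.66 (SE 0.24), or 1.57-fold, with 0.59 (SE 0.33) in D against C and 0.72 (SE 0.33) in D+P against C+P. Both of the low arrays were in column 1 of their slides, and the median coefficient of variation of repeated spots was 23.4% on D replicate 1 and 15.4% on D+P replicate 1, against 4.63% on D replicate 2. C+P replicate 1, also in column 1 and with 16.6%, was the highest non-diabetic array for *Acot2*, at 11.63, and D+P replicate 3, with 13.3%, was at 12.47. For *Acot1*, D replicate 1 was the highest D array. With the slide column as a block the averaged difference was 0.71 for *Acot2* and 1.74 for *Acot1*, and *Acot1* no longer passed the threshold. The part of spot noise in these values was not tested.

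The other type I members had averaged differences smaller than their SE. *Acot3*, a peroxisomal enzyme, was at 8.52 ± 0.20 in C and 8.52 ± 0.17 in D, and at 8.35 ± 0.20 in C+P and 8.38 ± 0.47 in D+P (SD, n = 3 each), and its averaged difference was 0.02 (SE 0.17). *Acot4*, which in peroxisomes cleaves the coenzyme A ester of succinate, was at the edge of detection, with values from 3.26 to 5.68 over the arrays, and its averaged difference was -0.15 (SE 0.36). That value had no settled sign, being 0.13 without D replicate 1, -0.40 without D replicate 3 and 0.13 with weak values set to missing. Neither of its 2 probes was well above background on more than 1 array.

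*Acot5*, another peroxisomal type I enzyme of the same cluster, was read from the list of other thioesterases because a probe of a paralog that moves with *Acot1* bears on what the *Acot1* probe measures. Probe 1 of *Acot5* was at 6.20, 6.05 and 6.19 in C, 6.30, 5.32 and 4.83 in C+P, 7.42, 7.46 and 7.24 in D and 6.14, 7.40 and 7.24 in D+P. All 3 D arrays and 2 of the 3 D+P arrays lay above all non-diabetic arrays, and D+P replicate 1 lay among them. Of the 12 arrays 10 had it well above background, but only 1 of the 3 C+P arrays did. Its averaged difference was 1.33 (SE 0.27), which did not pass the threshold (adjusted p = 0.123 in limma over all tested probes). Probe 2 of *Acot5*, well above background on 4 of 12 arrays, had an averaged difference of 0.13 (SE 0.17). In D against C both probes were above 0, probe 1 at 1.22 (SE 0.38) and probe 2 at 0.58 (SE 0.23). In D+P against C+P they had opposite signs, at 1.44 (SE 0.38) and -0.32 (SE 0.23). Whether either binds the transcript of *Acot1* was not tested.

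**Figure D2:**
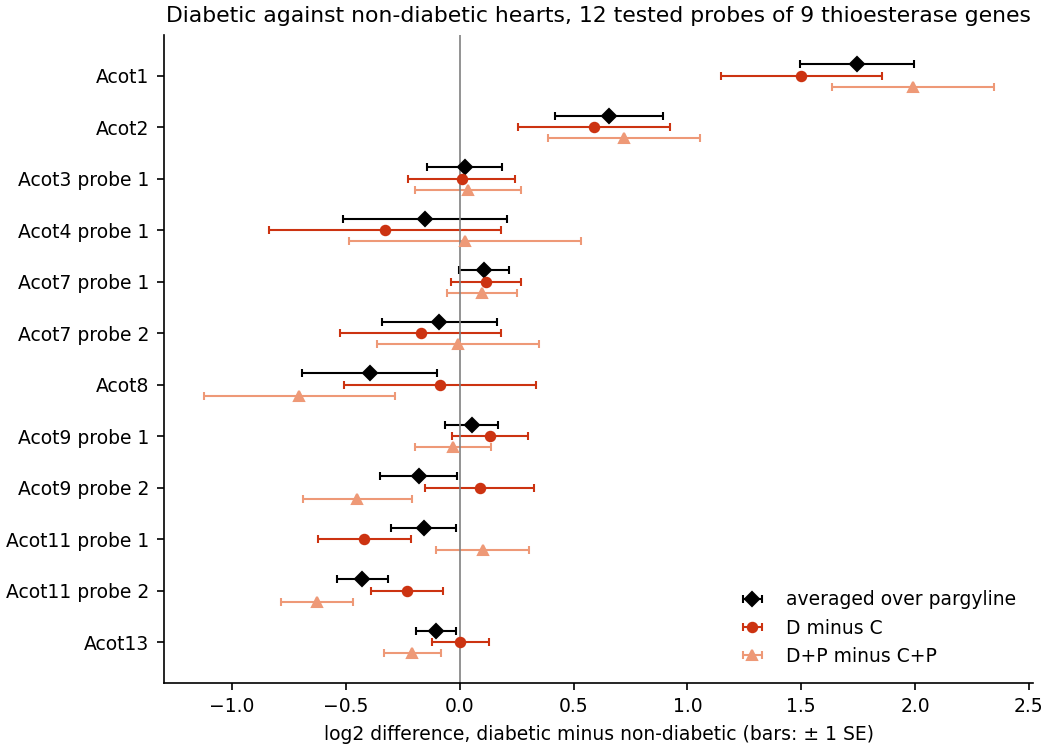
Log2 differences between diabetic and non-diabetic hearts (horizontal axis) for the 12 tested probes of the 9 genes, as the mean over both pargyline states (black), as D minus C (red) and as D+P minus C+P (orange), with bars of 1 SE. Acot1 at 1.75 and Acot2 at 0.66 lie to the right of the other 10 probes, whose averaged differences run from -0.43 to 0.11.

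For the 8 tested probes of the 5 type II genes the averaged differences ran from -0.43 to 0.11 with a median of -0.13, and 6 of the 8 were below 0. Over all 12 member probes the median was -0.10, against -0.01 over all tested probes, and 5 of 12 were above 0. The sign was the same within both slides for 4 of the 8 type II probes and for 3 of the 4 type I probes.

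*Acot11*, a cytosolic long-chain enzyme also known from brown fat, had a probe with the largest averaged difference by size among type II genes. Its probe 2 was at 8.01, 7.82 and 8.12 in C and at 8.46, 8.42 and 8.50 in C+P. It was at 7.64, 7.78 and 7.84 in D and at 8.08, 7.61 and 7.81 in D+P. The C+P arrays lay above all others, and the D and C arrays overlapped by a narrow margin. The averaged difference was -0.43 (SE 0.11), made of -0.23 (SE 0.16) in D against C and -0.63 (SE 0.16) in D+P against C+P. The brighter probe of the same gene gave -0.16 (SE 0.14), with -0.42 (SE 0.20) in D against C and 0.10 (SE 0.20) in D+P against C+P, so that the 2 *Acot11* probes had opposite signs within the pargyline slide. The brighter probe was at 9.51, 9.36 and 9.23 in C and at 8.49, 9.31 and 9.03 in D, and its D against C difference was -0.19 without D replicate 1.

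*Acot8*, a peroxisomal enzyme of broad substrate range, had an averaged difference of -0.40 (SE 0.30), which was -0.08 without D+P replicate 3. It was at 9.58, 9.47 and 7.61 on the D+P arrays and between 9.23 and 9.76 on the other 9. Only D+P replicate 3 stood apart. *Acot13*, a mitochondria-associated enzyme, was bright and steady, with 15.56 ± 0.07 in C and 15.56 ± 0.00374 in D, and 15.65 ± 0.09 in C+P and 15.44 ± 0.07 in D+P (SD, n = 3 each). Its D+P arrays lay below the C+P and the D arrays by small steps, and the averaged difference was -0.10 (SE 0.09).

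*Acot7*, the main cytosolic enzyme of brain, gave averaged differences of 0.11 (SE 0.11) at its brighter probe and -0.09 (SE 0.25) at the other. *Acot9*, a mitochondrial enzyme, gave 0.05 (SE 0.12) and -0.18 (SE 0.17). The diabetic and non-diabetic groups of both genes overlapped at each probe. At probe 2 of *Acot9*, D+P replicate 1 was low, at 7.72 against 8.37 to 9.09 on the other 11 arrays.

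**Figure D3:**
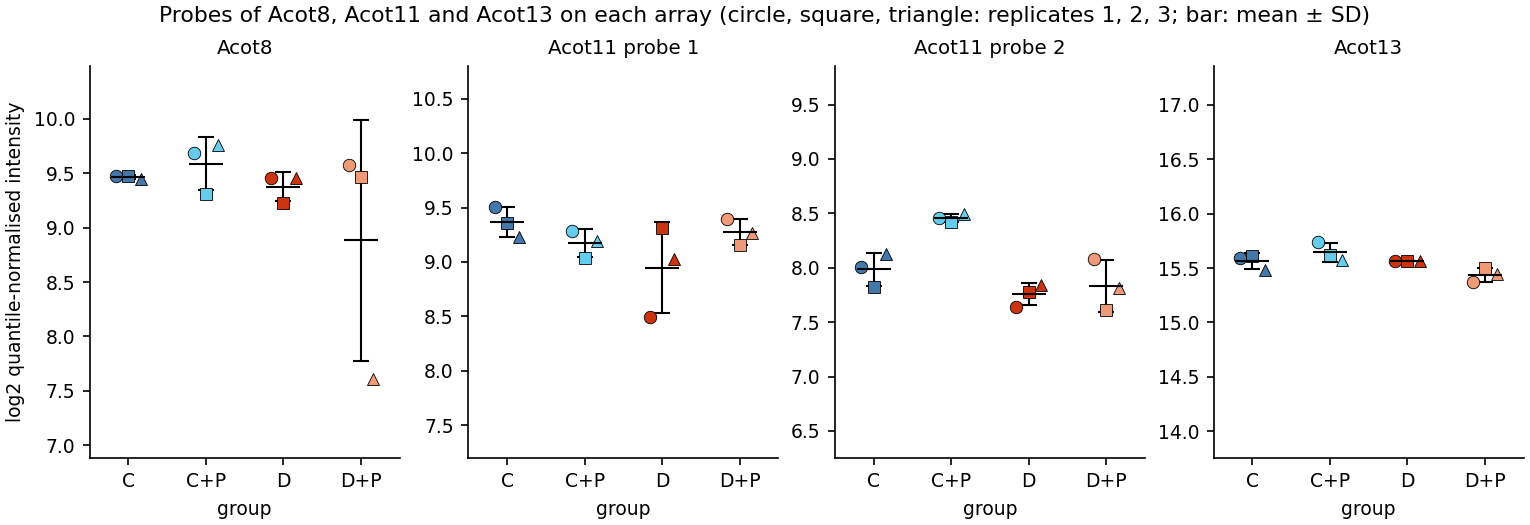
Log2 quantile-normalised intensity (vertical axis, the same width in each panel at different levels) of the probes of Acot8, Acot11 and Acot13 in the 4 groups, with symbols for single arrays (circle, square and triangle for replicates 1, 2 and 3) and bars for the mean and SD of 3 arrays. D+P replicate 3 stands apart for Acot8 at 7.61, and the C+P arrays of Acot11 probe 2 lie at 8.42 to 8.50, above the other 9.

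By overlap of the groups, 1 of 12 member probes, that of *Acot1*, separated D from C without overlap, where 22.3% of all tested probes did. In D+P against C+P 3 of 12 did, *Acot1* upward and probe 2 of *Acot11* and *Acot13* downward, beside 13.9% of all tested probes. The list was chosen by these contrasts, so nothing is read from these counts.

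The pargyline contrasts ask whether inhibition of monoamine oxidase moved these genes in healthy or in diabetic hearts, and the interaction asks whether it altered the diabetic difference. In limma, 0 of 12 member probes passed in C+P against C, where 0.0324% of all tested probes passed. In D+P against D 0 of 12 passed, as did 0% of all probes, and in the interaction 0 of 12 passed beside 0.00648% of all probes. At an unadjusted p under 0.05 the counts were 1, 0 and 0 of 12, beside 4.43%, 13.3% and 7.03% of all tested probes in the same order. The pairwise test of the study's methods called 0 member probes in either pargyline contrast.

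*Acot1* was at -0.45 in C+P against C (95% interval -1.23 to 0.33, limma adjusted p = 1.0) and at 0.04 in D+P against D (-0.74 to 0.82, limma adjusted p = 0.971). Its 3 C+P arrays lay below its 3 C arrays. The interaction was 0.49 (-0.62 to 1.60, limma adjusted p = 0.842), an interval too wide to say whether pargyline altered the diabetic difference of *Acot1*. Leaving out 1 array moved the interaction from 0.21 (without D+P replicate 3) to 1.00 (without D+P replicate 1), and D+P against D from -0.24 to 0.55 with the same arrays left out. *Acot2* gave 0.11 (-0.62 to 0.85) in C+P against C, 0.25 (-0.49 to 0.98) in D+P against D and 0.13 (-0.91 to 1.17) for the interaction. For *Acot2* the D+P against D value was -0.03 without D replicate 1 and 0.63 without D+P replicate 1, and the interaction was -0.14 and 0.52 without the same arrays.

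The probe with an unadjusted p under 0.05 was probe 2 of *Acot11*, at 0.47 in C+P against C (0.12 to 0.82, limma adjusted p = 1.0). Its 3 C+P arrays lay above its 3 C arrays, which was the case in either direction for 2 of 12 member probes and 15.4% of all tested probes. The brighter *Acot11* probe was at -0.19 (-0.64 to 0.26) in the same contrast. In D+P against D the groups of 1 of 12 member probes, that of *Acot13*, did not overlap, beside 17% of all tested probes, with a difference of -0.13 (-0.41 to 0.15).

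**Figure D4:**
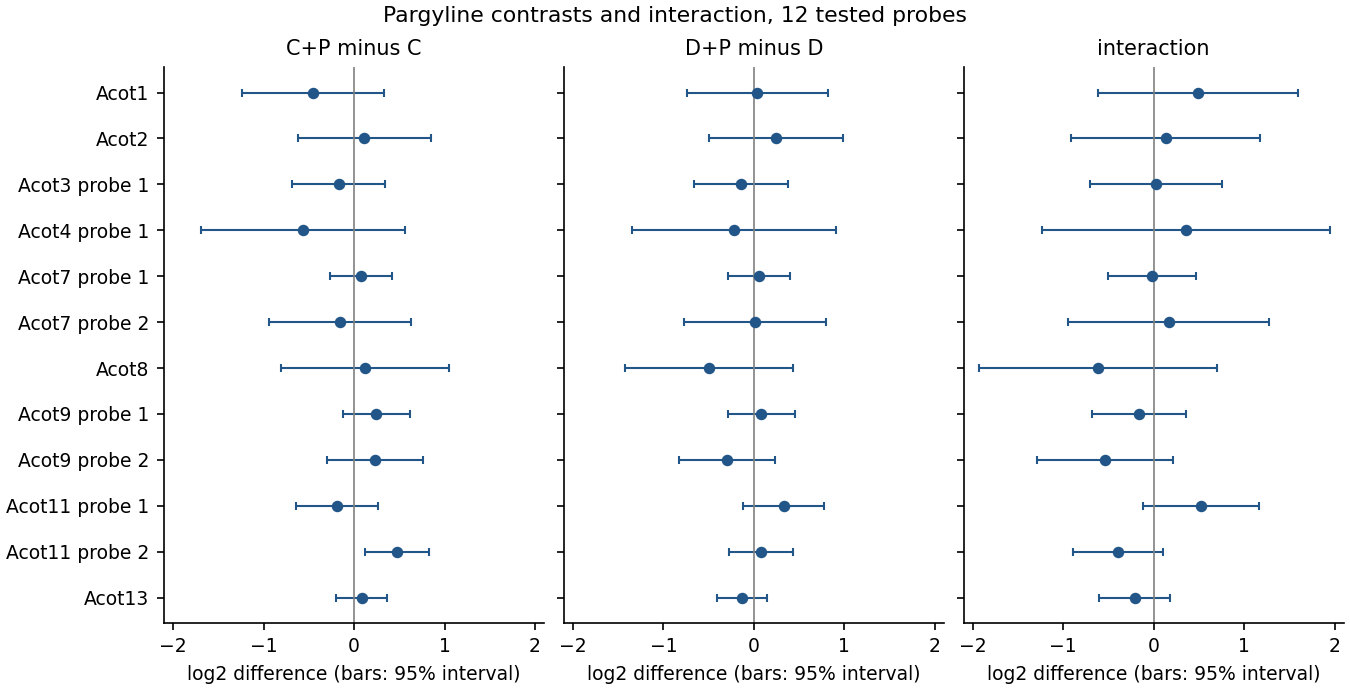
Log2 differences (horizontal axis) with 95% intervals of the 12 tested probes in C+P minus C, in D+P minus D and in the interaction, which is D+P minus C+P less D minus C. All intervals include 0 apart from that of Acot11 probe 2 in C+P minus C, from 0.12 to 0.82, and that for Acot1 in the interaction runs from -0.62 to 1.60.

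The genes whose values over the 12 arrays were most like those of *Acot1* were sought among all tested probes with a gene symbol, members left out. Of the 8 nearest by Pearson r, 7 are given here, *H19* (0.965), *P3h4* (0.964), *Ech1* (0.963), *Myom2* (0.963), *Ybx1* (0.954), *Pdk1* (0.949) and *Nectin2* (0.949). Each r mixes the step between non-diabetic and diabetic arrays with the order inside them, and the 12 arrays share the same normalisation. *Ech1* encodes an isomerase of unsaturated fatty acid oxidation and *Pdk1* a kinase that restrains pyruvate dehydrogenase. *Myom2* encodes a protein of the sarcomeric M-band and *H19* an imprinted non-coding RNA.

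Within the 6 diabetic arrays, r with *Acot1* was 0.883 for *H19*, 0.973 for *Myom2* and 0.970 for *Pdk1*, and within the 6 non-diabetic arrays it was 0.549, 0.484 and 0.808. *H19* was at 10.71, 10.22 and 10.49 in D and at 9.85, 10.58 and 10.88 in D+P, against 8.90 to 9.45 on the non-diabetic arrays. D+P replicate 1 was thus the lowest diabetic array for *H19* as it was for *Acot1* and for probe 1 of *Acot5*. It was also the lowest diabetic array for *Myom2*, at 15.9, and for *Pdk1*, at 10.8. For *H19*, *Myom2* and *Pdk1*, r without that array was not computed. Within the family, r with *Acot1* over the 12 arrays was 0.929 for probe 1 of *Acot5*, 0.783 for *Acot2* and -0.852 for probe 2 of *Acot11*. For probe 1 of *Acot5*, r with *Acot1* was 0.935 within the 6 non-diabetic and 0.835 within the 6 diabetic arrays, and for *Acot2* it was 0.103 and 0.679. Without D+P replicate 1, r over the 5 remaining diabetic arrays was -0.00207 for probe 1 of *Acot5* and 0.423 for *Acot2*.

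**Figure D5:**
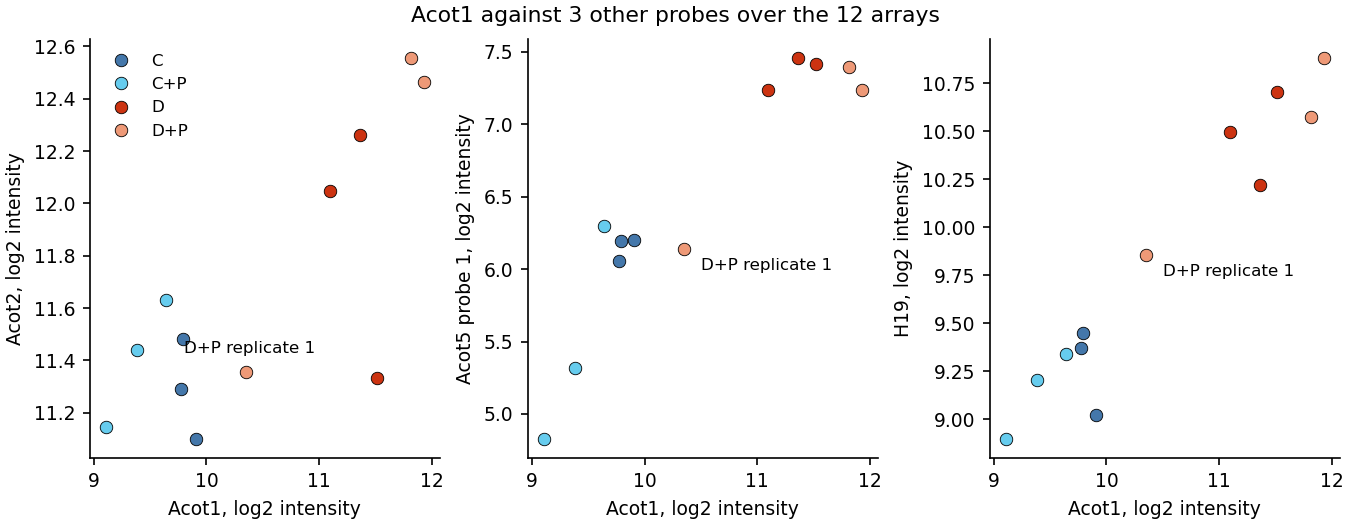
Log2 intensity of Acot1 (horizontal axis) against that of Acot2, probe 1 of Acot5 and H19 (vertical axes), 1 point per array, coloured by group. The 6 non-diabetic arrays lie at or below 9.91 for Acot1, and D+P replicate 1, labelled, lies at 10.35 between them and the other 5 diabetic arrays.

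Bases before the transcription start are shown for *Acot1*, *Acot2* and *Acot3*, 3 genes of the same cluster, in which *Acot4* lies between *Acot1* and *Acot3*, whose averaged diabetic differences were 1.75, 0.66 and 0.02. The 250 bases are those of RefSeq in GRCm38.p6, on the plus strand, at chr12:84009252-84009501 for *Acot1*, chr12:83987611-83987860 for *Acot2* and, for its first listed start, chr12:84051894-84052143 for *Acot3*. Capitals mark the CCAAT box, written ATTGG where it lies on the other strand.
Acot1: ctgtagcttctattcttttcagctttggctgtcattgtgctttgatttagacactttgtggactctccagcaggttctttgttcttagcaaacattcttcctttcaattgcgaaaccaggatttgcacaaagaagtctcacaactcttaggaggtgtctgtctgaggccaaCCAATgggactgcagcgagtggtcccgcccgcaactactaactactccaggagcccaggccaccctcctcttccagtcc
Acot2: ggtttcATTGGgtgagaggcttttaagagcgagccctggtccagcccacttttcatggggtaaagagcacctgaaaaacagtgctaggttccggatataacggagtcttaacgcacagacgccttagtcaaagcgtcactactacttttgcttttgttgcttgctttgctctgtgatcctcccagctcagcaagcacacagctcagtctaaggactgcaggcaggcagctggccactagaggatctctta
Acot3: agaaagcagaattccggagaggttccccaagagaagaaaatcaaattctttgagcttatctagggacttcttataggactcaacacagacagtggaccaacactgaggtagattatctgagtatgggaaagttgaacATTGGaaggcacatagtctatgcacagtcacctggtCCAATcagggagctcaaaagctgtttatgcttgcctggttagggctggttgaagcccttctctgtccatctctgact
Motifs were searched by their letters on both strands in the 250 bases of all 32851 windows, and 8 of the 9 genes had a window, with 2 windows each for *Acot3* and *Acot11* and 10 in all. The motif of 2 AGGTCA cores in the same direction with any 1 base between them, which PPAR and its partner RXR bind, was in 0 of these 10 windows and in 0.0335% of all windows. A single AGGTCA core, which is contained in the former motif, was in 1 of the 10, that of *Acot4*, and in 14% of all windows. The CCAAT box was in 8 of the 10 windows, which belong to 7 of the 8 genes, and in 33.8% of all windows. The 2 *Acot3* windows overlap almost wholly and type I genes are paralogs. The windows are therefore not independent, and nothing is read from this count. Neither *Acot1* nor *Acot2* nor *Acot3* held an AGGTCA core. A match of letters is no evidence of binding, and its lack says only that these letters are not in this window.

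Around the thioesterases, 5 lists of related genes were read in the same fit, with the brightest tested probe per gene. Of their 45 tested genes 0 passed in any of the 6 contrasts in limma, and before adjustment 11 had a p under 0.05 in the averaged diabetic contrast, where 11.4% of all tested probes did. Within the slides such a p was found for 2 of 45 in D against C, beside 10.8% of all tested probes, and for 6 of 45 in D+P against C+P, beside 7.46%. The other unadjusted counts were 3 of 45 in D+P against D, where 13.3% of all tested probes had such a p, 0 in C+P against C beside 4.43%, and 1 in the interaction beside 7.03%.

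The acyl-CoA synthetases, which run the opposite reaction, had 8 of 11 tested genes above 0 in the averaged contrast with a median of 0.15, where 48.5% of all tested probes were above 0. D against C alone had 8 of 11 above 0, and D+P against C+P had 6. *Acsl3*, a long-chain synthetase, was at 0.87 (SE 0.33), the acetyl-CoA synthetase *Acss2* at -0.70 (SE 0.27) and the fatty acid transporter *Slc27a1* at 0.60 (SE 0.17). *Acsl3* was well above background on 6 of 12 arrays. The list of acyl-CoA binding and carnitine transfer had 9 of 11 above 0 with a median of 0.17, where D against C gave 6 of 11 with a median of 0.03, and D+P against C+P 10 of 11 with a median of 0.25. There the carnitine palmitoyltransferase *Cpt1a* was at 0.60 (SE 0.20), where D against C gave 0.35 and D+P against C+P 0.85, the carnitine-acylcarnitine carrier *Slc25a20* at 0.51 (SE 0.22) and the peroxisomal *Crot* at 0.31 (SE 0.15).

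Genes that make and break down coenzyme A were split evenly, 5 of 10 above 0, with the pantothenate kinases *Pank3* and *Pank1* at 0.38 (SE 0.17) and 0.28 (SE 0.14) and the peroxisomal coenzyme A hydrolase *Nudt7* at 0.34 (SE 0.14). Among the regulators, 5 of 6 tested genes were above 0, with the coactivators *Ppargc1b* at 0.36 (SE 0.17) and *Ppargc1a* at 0.23 (SE 0.13), *Ppard* at -0.27 (SE 0.10) and *Ppara* at 0.06. Of the 12 other thioesterases 7 were tested and 4 were above 0, and 5 (*Acot12*, *Acnat2*, *Baat*, *Them5* and *Olah*) were well above background on 0 of 12 arrays. After *Acot5*, the next by size were *Acnat1* at -0.24 (SE 0.24), with opposite signs in D against C (-0.78, SE 0.34) and D+P against C+P (0.31, SE 0.34), and *Them4* at -0.20 (SE 0.15).

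Of 33 tested markers of 9 cell types, 0 passed in any contrast, and 6 had a p under 0.05 before adjustment for diabetes averaged over pargyline, where 11.4% of all tested probes did. Of these 6, 3 were leukocyte markers, of which 5 were tested, with *Adgre1* at -0.59 (SE 0.17), *Cd68* at -0.49 (SE 0.15) and *Ms4a1*, well above background on 2 of 12 arrays, at 0.77 (SE 0.31). The others were the calcium release channel *Ryr2* at -0.99 (SE 0.21), the fibroblast marker *Pdgfra* at 0.45 (SE 0.18) and the brown adipocyte marker *Cidea* at 0.29 (SE 0.10). The summed log2 level of the 6 cardiomyocyte markers ran from 19.26 to 19.34 in C and 19.15 to 19.43 in D, and from 19.20 to 19.48 in C+P and 19.18 to 19.41 in D+P. That sum is taken on the linear scale and so is carried by the brightest markers, and *Ryr2* was at -1.12 (SE 0.30) in D against C. The 5 white adipocyte markers summed to 7.61 to 8.14 in C and 7.89 to 8.79 in D, and to 7.54 to 8.23 in C+P and 7.39 to 8.05 in D+P, with *Adipoq*, their defining gene, well above background on 0 of 12 arrays. *Lep*, the brightest of the 5, was well above background on all 12 arrays. It was at 7.21 in C and 7.59 in D, and at 7.09 in C+P and 7.10 in D+P. Of the 3 brown adipocyte markers *Ucp1* and *Elovl3* were well above background on 0 of 12 arrays and *Cidea* on 12, at 12.25 in C and 12.59 in D. Their sum ran from 12.21 to 12.30 in C and 12.49 to 12.76 in D. With pargyline it ran from 12.30 to 12.44 in C+P and 12.48 to 12.76 in D+P. Every diabetic array lay above the non-diabetic ones, but the sum was almost that of *Cidea* alone. The 5 leukocyte markers summed to 12.16 to 12.33 in C and to 11.53 to 12.22 in D, and to 11.90 to 12.05 in C+P and 11.26 to 12.09 in D+P. In D+P against D, 5 of the 33 markers had a p under 0.05 before adjustment, beside 13.3% of all tested probes. Of these, the endothelial *Kdr* was at 0.75 (SE 0.18), *Tie1* at 0.59 (SE 0.25) and the smooth muscle *Myh11* at 1.59 (SE 0.32). The atrial *Myl7* was at -1.18 (SE 0.41) and the white adipocyte *Plin1* at -1.30 (SE 0.42), well above background on 4 and 0 of 12 arrays. Another smooth muscle marker, *Acta2*, was at -0.32 (SE 0.26). The smooth muscle sum ran from 12.58 to 13.24 in D and from 12.63 to 13.14 in D+P. All 4 endothelial markers were above 0 in D+P against D, with *Pecam1* at 0.08 (SE 0.18) and *Cdh5* at 0.14 (SE 0.25). Their sum, carried by the brightest, *Kdr*, ran from 12.78 to 13.21 in D and from 13.35 to 13.70 in D+P. These ranges did not overlap, as was the case for 17% of all tested probes. The non-diabetic sums were at 13.11 to 13.34 in C and 13.15 to 13.54 in C+P. Between diabetic and non-diabetic hearts, an unadjusted p under 0.05 was found for 4 of 33 within either slide. The shares of all tested probes were 10.8% (D against C) and 7.46% (D+P against C+P). Such a p was found for 0 in C+P against C, beside 4.43%, and for 3 in the interaction, beside 7.03%. The part of these shifts in the thioesterase values was not tested.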

How the data were processed

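Heart RNA was labelled with Cy3 and hybridised to 1-colour Agilent mouse arrays, 1 per mouse, and mice were grouped by their labels. The deposited scanner files give spot intensity from Feature Extraction (version 12.0.0.7 per the file headers, another than the methods name), with the background subtracted and no normalisation between arrays. The deposited series table holds intensity that the authors quantile normalised. It was used as an alternative.

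The scanner intensity was log2 transformed and quantile normalised, control spots were left out, spots flagged as outliers set to missing, and repeated spots averaged. Probes marked positive and significant in 50% or more of each group's arrays were tested (30859 of 56605). limma 3.58.1 in R 4.3.3 fitted 1 mean per group over all 12 arrays, with 8 residual and 2.62 prior degrees of freedom. Tests were two-sided, with Benjamini-Hochberg adjustment over all tested probes and a threshold of 0.05. SEs are those of the moderated fit. The script was tested on simulated data. Precision is limited by having 3 arrays in a group. For a comparison of 3 against 3 arrays, no exact permutation test reaches a p below 0.1.

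All 9 genes are named with all their probes, and a gene is represented by its brightest tested probe. The 8 genes most like *Acot1* were those of highest Pearson r over the 12 arrays, and 1 of these is not reported here. From each list of related genes up to 3 with the largest averaged difference are named, and any that passed. The members, the lists and the tests were chosen with earlier results of these data known. *Ppara*, the cell type markers and the undetected thioesterases were named after their values were seen. Alternatives were 75th percentile centring, normexp background correction, the series table, missing values for weak spots, 2 other filters, array weights, blocks for slide column, slide and replicate number, the methods' pairwise test, gene means and leaving out each array. Probe coordinates are in mm9, and promoters are of RefSeq in GRCm38.p6. Python 3.11.15 and matplotlib 3.10.9 drew the figures. Transcripts of paralogs were not used here.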

Additional observations from a re-analysis of the deposited data

How the results depend on the processing

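The averaged *Acot1* difference of 1.75 kept its direction under each alternative, between 1.74 and 1.87 with all 12 arrays and between 1.60 and 2.00 when each array was left out in turn. Every diabetic array lay above every non-diabetic one, so leaving out an array could not reverse it. The list was chosen by this difference, so nothing is read from its stability. The number of member probes that passed in the averaged contrast, 1 of 12, was 0 without a filter, 0 with the slide column as a block, 0 with the replicate block and 3 with array weights (*Acot1*, *Acot2* and probe 2 of *Acot11*). It ranged from 0 to 1 when each array was left out. In D+P against C+P it went from 0 to 1 with normexp, to 2 with array weights, and ranged from 0 to 1 when each array was left out. Array weights also gave 2 in D against C and 1 in C+P against C (probe 2 of *Acot11*, at 0.47). With these weights 2256 of all 30859 tested probes passed in the averaged contrast. D against C had 2936 such probes, D+P against C+P had 396 and C+P against C had 2259, so nothing is read from the member counts. The weights ran from 0.202 to 9.47, and their estimate stopped short of convergence. The cause of the other changes was not tested.

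Over all tested probes the count in the averaged contrast, 33, ran from 3 with the slide column as a block to 2256 with array weights, and from 3 to 116 when each array was left out, the highest without D+P replicate 1. The counts ran from 0 to 2936 in D against C (2), from 1 to 396 in D+P against C+P (14), from 1 to 2259 in C+P against C (10), from 0 to 70 in D+P against D (0) and from 0 to 73 in the interaction (2). The methods' pairwise test, at its Bonferroni threshold and after Benjamini-Hochberg adjustment, called 0 member probes. It has no form for the averaged contrast or the interaction, and the slide block applies to the averaged contrast alone.

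Replicate numbers only name mice. Deviations of arrays with the same number correlated between -0.20 and 0.20 over 18 pairs, and with different numbers between -0.19 and 0.21 over 36 pairs. Of the 12 tested member probes, 11 were well above background on all arrays, and the *Acot4* probe on 1 of 12.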
